A study of Mus musculus with 24 samples.

Results

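The enzymes that turn arachidonic acid into prostaglandins, thromboxane and leukotrienes were followed in bone marrow-derived macrophages of wild-type C57BL/6J mice. They are the 10 genes Pla2g4a, Ptgs1, Ptgs2, Ptges, Hpgds, Tbxas1, Alox5, Alox5ap, Lta4h and Ltc4s, picked by symbol out of 55401 genes in the count table, and all 10 were found there and passed the filter on low counts. The series compared cells left untreated, cells given 30 µM S14, a sphingomyelin named d18:1/14:0 in the series title, and cells given 100 ng/mL LPS, the bacterial lipopolysaccharide. Each treatment was read after 3 h and after 18 h in 4 libraries, so 24 libraries form 6 groups. All groups were grown to day 6 in medium with 10% fetal calf serum and 15% L929 cell-conditioned medium, and stimulated in medium with the serum and without the conditioned medium. S14 and LPS were each used at 1 dose, so no dose response can be read. The column names call the control cells "Veh" and the sample labels call them untreated. The series' design text gives 4 mice, but no label ties a library to an animal, so p-values measure the spread between these libraries and it is not known how much of that is between mice.

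Eicosanoids are made in steps. Cytosolic phospholipase A2 (Pla2g4a) cuts arachidonic acid from membrane phospholipids. The cyclooxygenases (Ptgs1, Ptgs2) convert it to prostaglandin H2, which Ptges, Hpgds and Tbxas1 turn into prostaglandin E2, prostaglandin D2 and thromboxane A2. On the other branch, 5-lipoxygenase (Alox5) with its membrane partner Alox5ap makes leukotriene A4, which Lta4h converts to leukotriene B4 and Ltc4s to leukotriene C4. In macrophages, cyclooxygenase-2 and microsomal prostaglandin E synthase are the classical inducible steps after LPS, and cyclooxygenase-1 is usually described as the constitutive form.

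The libraries held 3334182 to 6350251 reads each that were counted to genes, ribosomal RNA entries aside. They were taken from the 3′ ends of transcripts, so that levels do not scale with transcript length. Levels are given as CPM, reads scaled to a common library total after TMM normalization. Differences are log2 fold changes with their standard error (SE) from edgeR's quasi-likelihood test, called at a Benjamini-Hochberg adjusted p under 0.05 over 11717 genes. All 10 macrophage markers of a fixed list had reads in every group, with summed levels from 16677 to 46815 CPM. Mast cells, eosinophils and platelets can also make these lipids. The summed levels of their marker lists lay far below those of the macrophage list, at 46.8 CPM at most. The defining mast cell gene Ms4a2 and the eosinophil genes Epx and Ear1 were at 0 reads in all libraries. Other genes of the mast cell and eosinophil lists had reads in the 24 libraries. For mast cells or basophils these were Kit with 147, Gata2 with 37, Mcpt8 with 8, Cpa3 with 3 and Fcer1a with 2. For eosinophils they were Ccr3 with 1347, Siglecf with 288 and Prg2 with 42. The mast cell or basophil list summed to at most 4.06 CPM, in an untreated 18 h library. The summed eosinophil list was higher in LPS at 18 h, from 31.0 to 46.8 CPM against 9.10 to 15.2 CPM in untreated cells, and most of it was Ccr3, with a mean of 38.1 CPM. The fibroblast list stood at 10.3 to 17.5 CPM in LPS at 18 h against at most 1.58 CPM in untreated cells, nearly all from Dcn at 13.8 CPM, while Lum was at 0. The platelet list was also higher there, at 4.45 to 6.77 CPM against 0 to 1.58 CPM in untreated cells, mostly from Ppbp at 3.90 CPM. Their part in the results at 18 h was not tested. In bulk samples, fewer cells of a type and less RNA per cell cannot be told apart.

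Untreated 18 h library 4 stood apart from its group. Its reads differed from those of the other 3 libraries with a chi-square of 22.3 to 23.2 per degree of freedom, against 2.68 to 14.5 for every other pair of the same group, and it had the fewest genes with a read (13405). Without it, all calls of members against untreated cells at 18 h were kept except that of Alox5 with S14, and the time dependence of the S14 response of Ptgs2 was not called. The other pathway genes named here kept their calls without it.

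S14 moved 4 of the 10 enzymes at 3 h, where 15.2% of all genes tested were called. Ptgs2 and Ptges rose, as did 9.05% of all genes, and Hpgds and Alox5ap fell, as did 6.2%. LPS at 3 h moved these 4 in the same directions and also raised Pla2g4a, 3 members higher and 2 lower. Of all genes, LPS at 3 h called 55.5%, with 25.3% higher and 30.2% lower, so the members' share was close to the background. At 18 h S14 raised Ptgs2 and Ptges and lowered Ptgs1, Hpgds and Alox5, where it called 24.3% of all genes, 12.6% higher and 11.6% lower. LPS at 18 h raised Ptgs2, Ptges and Pla2g4a and lowered Ptgs1, Hpgds, Alox5, Alox5ap, Lta4h and Ltc4s, with Tbxas1 the member that was not called. It called 55.6% of all genes, 27.3% higher and 28.3% lower. The members' median log2 fold changes were -0.10 and -0.11 for S14 at 3 h and 18 h and -0.21 and -0.40 for LPS, against -0.03, -0.02, -0.11 and -0.04 over all genes tested. S14 and LPS share their untreated libraries at each time.

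**Figure D1:**
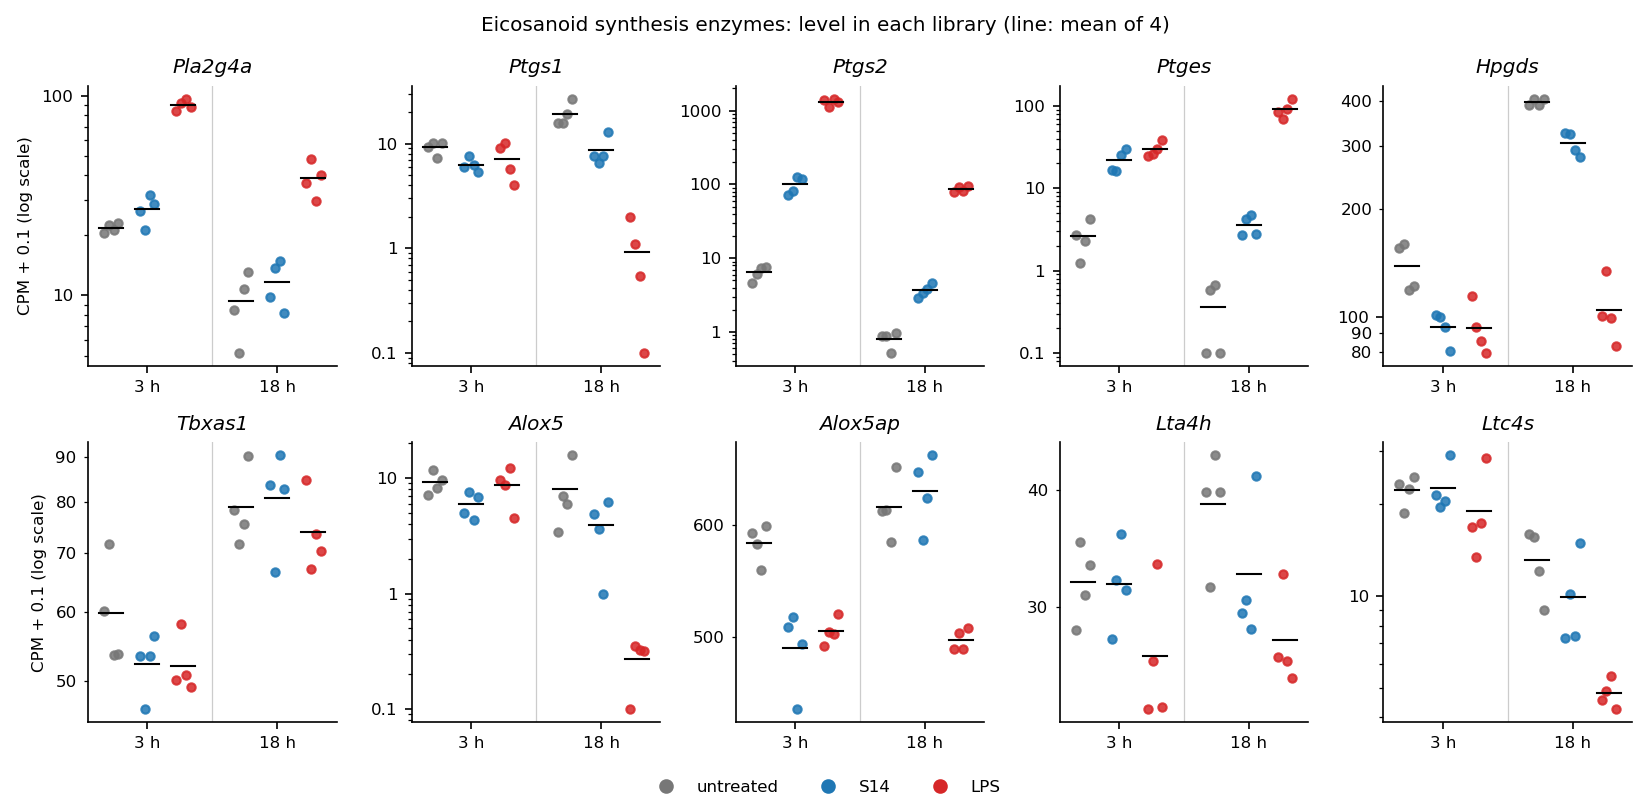
Level of each enzyme in every library, as CPM plus 0.1 on a log scale whose range differs between panels, with the 4 libraries of a group as points and their mean as a line. Ptgs2 and Ptges stand above the untreated libraries under both agents, Pla2g4a under LPS alone by the test, and Ptgs1, Alox5 and Ltc4s have their lowest group mean in LPS at 18 h.

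**Figure D2:**
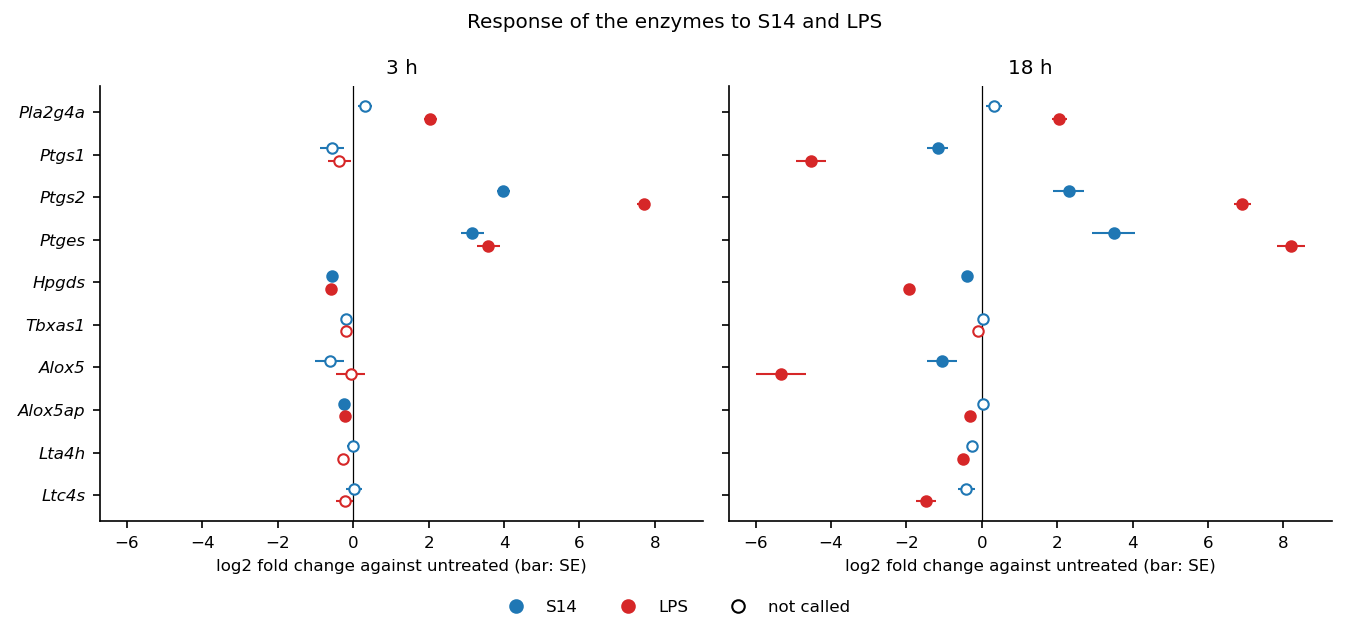
Log2 fold change of each enzyme against untreated cells at the same time, with the SE as a bar, for S14 (blue) and LPS (red), with open symbols for values that were not called. The 2 panels share their axis, and the widest spread is seen for LPS at 18 h, from -5.32 for Alox5 to 8.19 for Ptges.

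Release of arachidonic acid was read through Pla2g4a (ENSMUSG00000056220, chr1:149829618-149961290, minus strand, GRCm38). It stood at 20.5, 22.5, 21.1 and 23.0 CPM in the untreated libraries at 3 h, at 26.4, 21.2, 31.6 and 28.5 CPM with S14 and at 83.3, 91.4, 96.4 and 88.0 CPM with LPS. All 4 LPS libraries lay above all others, while S14 and untreated libraries overlapped. LPS raised it 4.12-fold (log2 fold change 2.04 ± 0.17 SE, edgeR adjusted p = 2.02e-13), and the S14 difference of 0.31 ± 0.18 was not called (edgeR adjusted p = 0.31). At 18 h the levels were lower in every treatment: 5.06 to 13.0 CPM untreated, 8.08 to 14.8 CPM with S14 and 29.8 to 48.3 CPM with LPS. The LPS difference was again 2.06 ± 0.19 (edgeR adjusted p = 2.45e-12) and the S14 difference 0.32 ± 0.21 (edgeR adjusted p = 0.279). S14 against LPS was -1.73 on the log2 scale at both times, with an SE of 0.17 at 3 h and 0.19 at 18 h. In that comparison at 3 h Pla2g4a and Ptgs2 were called lower, and 0 members were called higher by edgeR or DESeq2 (0 at an unadjusted edgeR p under 0.05), where 46.1% of all genes were called, 23.7% higher and 22.4% lower. At 18 h 5 members were higher with S14 and 3 lower, where 42.6% of all genes were called, 21.3% in each direction.

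Ptgs2 (ENSMUSG00000032487, chr1:150100031-150108227, plus strand), which encodes cyclooxygenase-2, had the largest response of the 10 genes at 3 h under either agent. Untreated cells at 3 h held 4.47, 6.08, 7.26 and 7.41 CPM. With S14 the 4 libraries held 71.3, 82.3, 125 and 120 CPM, and with LPS 1377, 1132, 1447 and 1321 CPM. The 3 groups did not overlap. S14 raised it 15.8-fold (log2 fold change 3.99 ± 0.17, edgeR adjusted p = 2.48e-18) and LPS 209-fold (7.70 ± 0.17, edgeR adjusted p = 1.49e-27), so that S14 stayed 13.2-fold below LPS (-3.72 ± 0.13, edgeR adjusted p = 5.77e-22).

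By 18 h Ptgs2 was lower in every treatment. The untreated libraries held 0.774, 0.790, 0.419 and 0.875 CPM from 17 reads in all, the S14 libraries 2.79, 3.29, 3.77 and 4.49 CPM, and the LPS libraries 78.7, 93.1, 81.7 and 95.9 CPM. The order untreated, S14, LPS was that of 3 h, again with no overlap between neighbours. S14 was above untreated cells 4.94-fold (2.31 ± 0.41, edgeR adjusted p = 6e-05), LPS 120-fold (6.91 ± 0.24, edgeR adjusted p = 3.51e-22), and S14 below LPS 24.4-fold (-4.61 ± 0.19, edgeR adjusted p = 1.68e-19). Mean Ptgs2 with S14 at 18 h, 3.59 ± 0.72 CPM (SD, n = 4), was under that of untreated cells at 3 h, 6.31 ± 1.36 CPM, a pair of groups that was not tested. Ptgs2 of untreated cells fell by 3.12 ± 0.36 on the log2 scale from 3 h to 18 h (edgeR adjusted p = 2.08e-08).

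The S14 response of Ptgs2 was smaller at 18 h than at 3 h (-1.68 ± 0.56 on the log2 scale, edgeR adjusted p = 0.0348). That difference was not called in 7 of 16 fits that each left out 1 library: untreated 3 h libraries 1 and 2, untreated 18 h libraries 1, 2 and 4, and S14 18 h libraries 1 and 2. Over the 16 fits it ran from -1.89 to -1.55, with adjusted p up to 0.198. For LPS the change between times was -0.79 ± 0.52 and not called (edgeR adjusted p = 0.205). Scaled to spike-in RNAs with all libraries, it was -1.59 and called (edgeR adjusted p = 0.0344). It was not called when untreated 18 h library 4 was also left out.

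Ptgs1 (ENSMUSG00000047250, chr2:36230426-36252272, plus strand), which encodes cyclooxygenase-1, went the other way with time in untreated cells. With LPS its mean was lower at 18 h than at 3 h, as that of Ptgs2 was, a pair of groups that was not tested. At 3 h the untreated libraries held 9.18, 10.1, 7.26 and 9.96 CPM, the S14 libraries 5.26 to 7.53 CPM and the LPS libraries 3.89 to 10.0 CPM. The 3 groups overlapped and no difference was called (S14 -0.56 ± 0.31, edgeR adjusted p = 0.269; LPS -0.37 ± 0.31, edgeR adjusted p = 0.327). At 18 h the untreated libraries held 15.5, 15.7, 19.0 and 26.8 CPM, the S14 libraries 7.57, 6.38, 7.53 and 12.8 CPM, and the LPS libraries 1.87, 1.01, 0.448 and 0 CPM, from 8, 4, 2 and 0 reads. The groups lay apart in that order. S14 lowered Ptgs1 2.25-fold (-1.17 ± 0.28, edgeR adjusted p = 0.00153) and LPS 22.9-fold (-4.52 ± 0.40, edgeR adjusted p = 5.13e-13), with S14 10.2-fold above LPS (3.35 ± 0.43, edgeR adjusted p = 1.67e-08). Untreated cells rose by 1.07 ± 0.28 from 3 h to 18 h (edgeR adjusted p = 0.0021).

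The share of Ptgs2 in all cyclooxygenase reads brings the pair together and does not depend on library scaling. In untreated cells it was 40.7% ± 7.4 (SD, n = 4) at 3 h and 3.72% ± 1.3 at 18 h. With S14 it was 93.8% ± 2.1 at 3 h and 30.1% ± 4.2 at 18 h. With LPS it was 99.4% ± 0.26 and 99.0% ± 0.99. At 18 h the S14 libraries, at 26.0% to 34.0%, lay between the untreated ones, at 2.16% to 4.81%, and the LPS ones, at 97.7% to 100.0%.

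**Figure D3:**
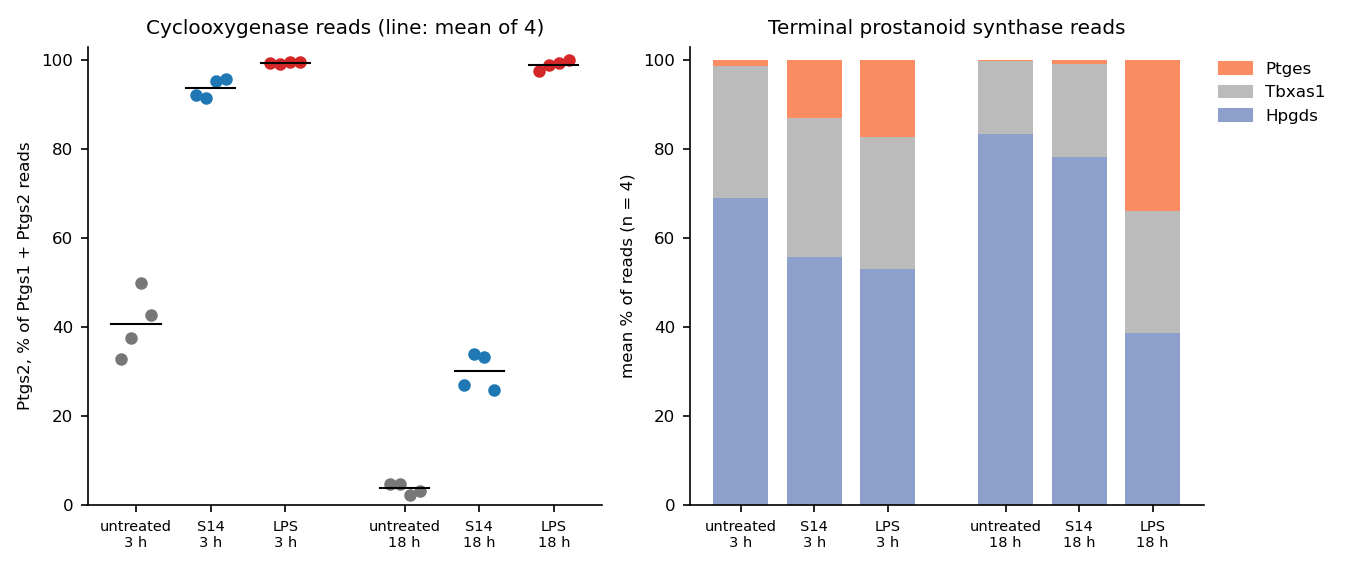
Left, Ptgs2 as a percentage of the reads of both cyclooxygenase genes, with 1 point per library and the group mean as a line. Right, the mean share of Ptges, Tbxas1 and Hpgds in their summed reads; with S14 the left-hand share drops from 93.8% at 3 h to 30.1% at 18 h, with LPS it stays near 99%, and on the right Ptges reaches 33.9% in LPS at 18 h.

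The sequence before the start of these genes is shown for the cyclooxygenase pair and for Ptges. They are the members that moved most within the prostaglandin branch at 18 h, Ptgs2 and Ptges up and Ptgs1 down. At 3 h Ptgs1 was not called with either agent. The RefSeq promoter table (GRCm38.p6) held 9 of the 10 members and not Alox5ap. Each window holds the 250 bases upstream of the RefSeq start, 5′ to 3′ on the gene's strand, with matches to any of 8 motifs in capitals. The windows are chr1:150099781-150100030 (plus strand) for Ptgs2, chr2:36230176-36230425 (plus strand) for Ptgs1 and chr2:30903298-30903547 (minus strand) for Ptges, whose annotated gene has a further start upstream.
Ptgs2: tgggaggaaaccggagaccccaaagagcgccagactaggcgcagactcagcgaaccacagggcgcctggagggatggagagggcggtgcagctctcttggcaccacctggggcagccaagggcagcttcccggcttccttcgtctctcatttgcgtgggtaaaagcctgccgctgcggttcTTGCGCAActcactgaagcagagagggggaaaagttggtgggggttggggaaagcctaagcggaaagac
Ptgs1: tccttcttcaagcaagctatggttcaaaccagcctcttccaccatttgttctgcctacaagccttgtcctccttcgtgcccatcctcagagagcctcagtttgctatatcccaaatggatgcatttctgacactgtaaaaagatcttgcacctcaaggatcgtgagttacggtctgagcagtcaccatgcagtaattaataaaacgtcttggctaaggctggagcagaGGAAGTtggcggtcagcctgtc
Ptges: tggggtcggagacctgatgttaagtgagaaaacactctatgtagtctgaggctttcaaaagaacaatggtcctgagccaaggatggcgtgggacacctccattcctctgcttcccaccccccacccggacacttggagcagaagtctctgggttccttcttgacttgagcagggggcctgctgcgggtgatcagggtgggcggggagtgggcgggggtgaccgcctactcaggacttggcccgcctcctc
The motifs, searched on both strands, were an NF-kB consensus, TATAAA (the TATA box), TGACGT (the core of a cyclic AMP response element), CACGTG (the E-box), TGANTCA (bound by AP-1 factors), TTGCNNAA (C/EBP factors), GGAAGT (ETS factors such as PU.1) and an interferon-stimulated response element. Ptgs2 held TTGCGCAA, a TTGCNNAA match, 69 to 62 bases before the start, a motif found in 9.56% of 32851 promoters of this length. Ptgs1 held GGAAGT 22 to 17 bases before the start, found in 19.7% of them. Ptges held none of the 8, as did Alox5 and Lta4h. GGAAGT was also found before Hpgds, Ltc4s and the second start of Pla2g4a, TTGCNNAA before Hpgds, TATAAA before Tbxas1 and the second start of Pla2g4a, and TGANTCA before Tbxas1. No NF-kB consensus, found in 7.25% of all windows, lay in those of the 9 members. A search of the 50 bases after the start, added after the windows had been seen, found TGACGT (minus strand) and CACGTG overlapping by 2 bases in Ptgs2, at bases 13 to 22 after its RefSeq start.
Ptgs2 site: tcaccactACGTCACGTGgagtccgc
The capitals mark the joined pair, which 32 of the 32851 promoters of the table hold. These matches describe letters and are not evidence of binding.

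Ptges (ENSMUSG00000050737, chr2:30889471-30929863, minus strand) encodes microsomal prostaglandin E synthase-1, the inducible enzyme that works after cyclooxygenase-2. At 3 h it stood at 2.59, 1.13, 2.20 and 4.09 CPM in untreated libraries, at 16.5, 16.2, 24.9 and 29.8 CPM with S14, and at 24.3, 26.2, 29.9 and 38.7 CPM with LPS. S14 and LPS libraries overlapped, and both groups lay above the untreated one. S14 raised it 8.92-fold (3.16 ± 0.31, edgeR adjusted p = 4.19e-10) and LPS 12.0-fold (3.59 ± 0.30, edgeR adjusted p = 1.63e-12). The difference between S14 and LPS, -0.43 ± 0.22 on the log2 scale, was not called (edgeR adjusted p = 0.113), but was called without S14 3 h library 4 (-0.63, edgeR adjusted p = 0.029) and when only the groups compared were fitted (-0.43, edgeR adjusted p = 0.0414). For Ptgs2 the same difference was -3.72 ± 0.13.

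At 18 h Ptges had 7 reads in the untreated group (0, 3, 4 and 0), a mean of 0.258 CPM. S14 libraries held 2.59, 4.12, 4.65 and 2.69 CPM and LPS libraries 84.3, 69.5, 90.6 and 122 CPM, with no overlap between the 3 groups. The fitted differences were 3.50 ± 0.56 for S14 (edgeR adjusted p = 1.25e-05) and 8.19 ± 0.37 for LPS (edgeR adjusted p = 7.45e-20), and their size rests on those 7 reads. S14 lay 25.9-fold below LPS (-4.70 ± 0.27, edgeR adjusted p = 1.26e-16). The LPS response grew by 4.61 ± 0.64 between the times (edgeR adjusted p = 1.92e-07), while that of S14 changed by 0.34 ± 0.62 (edgeR adjusted p = 0.777). The mean with LPS was 29.8 ± 6.37 CPM at 3 h and 91.5 ± 22.0 CPM at 18 h, when Ptgs2 had gone from 1319 ± 135 CPM to 87.3 ± 8.42 CPM.

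Hpgds (ENSMUSG00000029919, chr6:65117293-65144908, minus strand), the hematopoietic prostaglandin D synthase, was the most read of the 3 terminal synthases. Untreated libraries held 155, 159, 119 and 122 CPM at 3 h and 389, 405, 389 and 406 CPM at 18 h, a rise of 1.52 ± 0.11 on the log2 scale (edgeR adjusted p = 1.89e-13). With S14 it stood at 80.4 to 101 CPM at 3 h and 278 to 326 CPM at 18 h. With LPS it stood at 79.2 to 114 CPM and 82.8 to 134 CPM. The LPS ranges of the 2 times overlapped, while untreated and S14 libraries lay higher at 18 h than at 3 h without overlap. At 3 h Hpgds fell by 0.57 ± 0.12 with S14 (edgeR adjusted p = 0.000367) and fell by 0.58 ± 0.12 with LPS (edgeR adjusted p = 8.3e-05). At 18 h the S14 difference was -0.38 ± 0.11 (edgeR adjusted p = 0.00868) and the LPS difference -1.93 ± 0.12 (edgeR adjusted p = 7.99e-17), with S14 2.93-fold above LPS (1.55 ± 0.12, edgeR adjusted p = 8.63e-14).

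The calls of the 2 falls of Hpgds at 3 h depended on library scaling. When libraries were scaled to the added spike-in RNAs, the median gene itself moved by 0.11 for S14 and 0.34 for LPS at 3 h, and by -0.97 and -0.64 at 18 h. Leaving out untreated 18 h library 4, which also had the lowest spike-in share of the 24 (0.0134%), made the shifts at 18 h -0.48 and -0.16. Under that scaling with all libraries the falls of Hpgds at 3 h were -0.47 for S14 (edgeR adjusted p = 0.969) and -0.18 for LPS (edgeR adjusted p = 0.726). After TMM scaling they were -0.57 and -0.58, so the size changed less for S14 than for LPS. Spike-in scaling called 374 genes in all for S14 at 3 h, against 1786 after TMM scaling. At 18 h it added falls with S14 for Tbxas1 (-1.02, edgeR adjusted p = 0.00912), Alox5ap (-0.99, edgeR adjusted p = 0.00876), Lta4h (-1.25, edgeR adjusted p = 0.00278) and Ltc4s (-1.22, edgeR adjusted p = 0.00587). Without untreated library 4 those of Tbxas1 and Alox5ap were -0.37 and -0.39 and not called. Tbxas1 was also called lower with LPS at 18 h under spike-in scaling with all libraries (-0.84, edgeR adjusted p = 0.0355). That LPS call was absent when untreated library 4 was left out. The large rises of Ptgs2 and Ptges and the falls of Ptgs1 at 18 h were called under either scaling.

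Tbxas1 (ENSMUSG00000029925, chr6:38875404-39084585, plus strand), the thromboxane A synthase, was not called between treatments after TMM scaling. Group means at 3 h were 59.7 ± 8.52 CPM untreated, 52.3 ± 4.16 CPM with S14 and 51.9 ± 4.05 CPM with LPS. At 18 h they were 78.8 ± 8.04, 80.8 ± 10.1 and 73.8 ± 7.64 CPM. Untreated cells rose by 0.40 ± 0.11 between the times (edgeR adjusted p = 0.00401), though the 2 groups overlapped by a narrow margin, 53.5 to 71.6 against 71.5 to 90.1 CPM. Tbxas1 overlaps Hipk2 on the other strand, which had 3050 reads in the 24 libraries. No source used here gives the strand setting of the counting.

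Among the reads of the 3 terminal synthases, Ptges made up 1.30% ± 0.74 (SD, n = 4) in untreated cells at 3 h, 13.0% ± 4.0 with S14 and 17.2% ± 4.5 with LPS. At 18 h its share was 0.055% ± 0.064 untreated, 0.91% ± 0.27 with S14 and 33.9% ± 7.8 with LPS. The share of Hpgds at 18 h was 83.4% ± 1.3 untreated, 78.3% ± 3.0 with S14 and 38.7% ± 8.1 with LPS. At 18 h untreated and S14 libraries thus read mostly Hpgds, and LPS libraries a mix of all 3 genes. These are shares of transcripts, and no lipid was measured.

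The leukotriene branch was followed through Alox5, Alox5ap, Lta4h and Ltc4s. Alox5 (ENSMUSG00000025701, chr6:116410077-116461178, minus strand) stood at 7.06 to 11.7 CPM in untreated libraries at 3 h, 4.22 to 7.53 CPM with S14 and 4.41 to 12.1 CPM with LPS, with overlap and no call. At 18 h untreated libraries held 3.29, 6.96, 5.87 and 15.8 CPM and S14 libraries 4.78, 3.50, 0.886 and 6.06 CPM. The LPS libraries had 0, 1, 1 and 1 reads, against 193 reads in the untreated group. After scaling that is a ratio of 45.7 (95% interval 15.4 to 223, exact binomial, counting error only), called with an edgeR adjusted p of 9.99e-09. S14 against LPS gave 22.0 (7.24 to 109), with an edgeR adjusted p of 9.72e-06. The difference between LPS and untreated cells changed between the times by -5.25 ± 0.81 as fitted (edgeR adjusted p = 9.25e-07), a size that depends on those 3 reads.

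The lower Alox5 with S14 at 18 h was a weak call (-1.06 ± 0.40, edgeR adjusted p = 0.0464), and the groups overlapped. It was lost in 5 of 8 fits that left out 1 library: without untreated library 4 it was -0.51 (edgeR adjusted p = 0.381), without S14 library 3 -0.73 (edgeR adjusted p = 0.187), and without untreated library 2 or S14 library 1 or 2 it was -1.12, -1.19 and -1.02 with adjusted p from 0.0526 to 0.102. Library 4 of the untreated group held 15.8 CPM and library 3 of the S14 group 0.886 CPM, the highest and lowest of the 8.

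Alox5ap (ENSMUSG00000060063, chr5:149264767-149288153, plus strand), the 5-lipoxygenase activating protein, was read more than any other member in every group but LPS at 3 h, where Ptgs2 was, and stood at 583 to 659 CPM in untreated libraries at 18 h. At 3 h untreated libraries held 592, 581, 558 and 599 CPM, S14 libraries 508, 517, 444 and 494 CPM and LPS libraries 493, 504, 502 and 519 CPM. Both treated groups lay below the untreated group and overlapped each other. The falls were small, -0.25 ± 0.07 for S14 (edgeR adjusted p = 0.00796) and -0.21 ± 0.07 for LPS (edgeR adjusted p = 0.00954). Without S14 library 3 the former missed the call (-0.20, edgeR adjusted p = 0.0608), and with spike-in scaling the LPS difference turned to 0.14 (edgeR adjusted p = 0.793) and the S14 difference was -0.14 (edgeR adjusted p = 1.0). At 18 h S14 libraries, at 585 to 672 CPM, overlapped the untreated ones, and LPS libraries, at 490 to 507 CPM, lay below both. It fell by 0.31 ± 0.07 with LPS (edgeR adjusted p = 0.000152), a call lost with spike-in scaling when untreated library 4 was left out (-0.41, edgeR adjusted p = 0.181), and S14 was above LPS by 0.35 ± 0.07 (edgeR adjusted p = 4.55e-05). With spike-in scaling S14 and LPS at 18 h differed by 0.02 (edgeR adjusted p = 0.979).

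Lta4h (ENSMUSG00000015889, chr10:93453411-93484875, plus strand), leukotriene A4 hydrolase, was called with all libraries after TMM scaling only for LPS at 18 h against untreated cells. Untreated libraries then held 39.7, 31.5, 43.5 and 39.7 CPM, and LPS libraries 26.5, 32.5, 26.2 and 25.1 CPM, a difference of -0.49 ± 0.14 (edgeR adjusted p = 0.00395) with 1 LPS library inside the untreated range. With spike-in scaling and without untreated library 4 it was -0.66 and missed the call (edgeR adjusted p = 0.0512). S14 libraries held 29.5, 30.5, 28.4 and 41.3 CPM, and their difference of -0.25 ± 0.14 was not called (edgeR adjusted p = 0.2). At 3 h the means were 31.8 ± 2.98 CPM untreated, 31.7 ± 3.36 CPM with S14 and 26.5 ± 4.69 CPM with LPS. S14 against LPS at 3 h was 0.26 ± 0.15 and not called (edgeR adjusted p = 0.17), but was called without LPS 3 h library 3 (0.39, edgeR adjusted p = 0.0499). Without that library LPS against untreated cells at 3 h was also called (-0.39, edgeR adjusted p = 0.0391).

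Ltc4s (ENSMUSG00000020377, chr11:50236461-50238616, minus strand), leukotriene C4 synthase, did not differ by the test at 3 h, with means of 22.2 ± 2.51, 22.6 ± 4.33 and 18.9 ± 6.49 CPM in untreated, S14 and LPS cells. At 18 h untreated libraries held 15.9, 15.5, 12.0 and 8.93 CPM, S14 libraries 7.18, 10.1, 7.31 and 14.8 CPM and LPS libraries 4.45, 4.78, 5.37 and 4.15 CPM. LPS lay below both other groups, which overlapped. LPS lowered Ltc4s 2.78-fold (-1.47 ± 0.26, edgeR adjusted p = 5.09e-06), S14 was 2.09-fold above LPS (1.06 ± 0.27, edgeR adjusted p = 0.0013), and S14 against untreated cells was -0.41 ± 0.23 (edgeR adjusted p = 0.202). Without S14 18 h library 4 that last difference was -0.67 and called (edgeR adjusted p = 0.0459). With spike-in scaling the difference between S14 and LPS was 0.79 and not called (edgeR adjusted p = 0.163). The antisense gene Gm26542, which overlaps Ltc4s, had 21 reads in all libraries.

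In untreated cells alone, 7 members changed between 3 h and 18 h, where 38.8% of all genes did. Hpgds, Ptgs1 and Tbxas1 rose, as did 19.2% of all genes, and Ptgs2, Ptges, Pla2g4a and Ltc4s fell, as did 19.6%. The falls of Pla2g4a (-1.23 ± 0.20, edgeR adjusted p = 2.64e-06) and Ltc4s (-0.77 ± 0.22, edgeR adjusted p = 0.00434) were -0.27 and -0.10 with spike-in scaling and then not called. With untreated library 4 also left out, that of Pla2g4a was -1.07 and called (edgeR adjusted p = 0.00401) and that of Ltc4s was not (edgeR adjusted p = 0.514). The log2 fold change of S14 against untreated cells was lower at 18 h than at 3 h for Ptgs2 and higher for Alox5ap. There 16.6% of all genes were called, 8.98% lower and 7.61% higher. For Ptgs2 the rise was smaller (2.31 after 3.99), and Alox5ap went from -0.25 to 0.04. The log2 fold change of LPS was lower at 18 h for Ptgs1, Hpgds, Alox5 and Ltc4s and higher for Ptges. There 51.2% of all genes were called, 26.1% lower and 25.1% higher. The genes with lower values lay further below untreated cells at 18 h than at 3 h. Ptgs1 was at -4.52 after -0.37, Hpgds at -1.93 after -0.58, Alox5 at -5.32 after -0.07 and Ltc4s at -1.47 after -0.23.

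The other genes of the pathway were taken from 5 lists. After TMM scaling their counts stand beside the shares of all genes called, 15.2% and 24.3% for S14 at 3 h and 18 h and 55.5% and 55.6% for LPS. Spike-in scaling with all libraries called 374 genes in all for S14 and 3296 for LPS at 3 h, against 1786 and 6500 after TMM scaling. For S14 at 18 h it called 7639 genes, against 2844, and the median gene moved by -0.97. The counts of falls with S14 at 18 h under that scaling thus include a shift seen over all genes. Of 23 genes for release and remodelling of arachidonate, 19 passed the filter: S14 raised 3 and lowered 3 at 3 h and raised 6 and lowered 3 at 18 h, while LPS raised 2 and lowered 7 at 3 h and raised 7 and lowered 8 at 18 h. The LPS counts at 3 h, 9 genes of 19, made a share near that of all genes. With spike-in scaling S14 raised 1 and lowered 0 at 3 h and raised 0 and lowered 13 at 18 h, or raised 2 and lowered 3 when untreated library 4 was also left out. Acsl1, an acyl-CoA synthetase that activates long-chain fatty acids, stood at 62.2 ± 4.54 CPM in untreated cells and 135 ± 6.18 CPM with S14 at 3 h (log2 fold change 1.12 ± 0.12, edgeR adjusted p = 9.14e-09), and at 39.3 ± 5.63, 114 ± 20.7 and 682 ± 147 CPM in untreated, S14 and LPS cells at 18 h. Pla2g7, which hydrolyses platelet-activating factor, stood at 95.9 ± 26.2 CPM untreated and 280 ± 37.7 CPM with S14 at 18 h (1.55 ± 0.13, edgeR adjusted p = 7.45e-11). With LPS at 18 h Pla2g7 stood at 589 ± 90.8 CPM and was also called higher than in untreated cells. With spike-in scaling the S14 rises of Acsl1 and Pla2g7 at 18 h were 0.59 and 0.40 and not called, but both were called when untreated library 4 was also left out. Fads2, a desaturase of arachidonate synthesis, fell from 57.6 ± 11.1 to 6.35 ± 1.2 CPM with LPS at 18 h (-3.19 ± 0.16, edgeR adjusted p = 5.63e-21). Acsl3, another acyl-CoA synthetase, fell to 16.3 ± 4.07 CPM with S14 and 7.06 ± 1.12 CPM with LPS at 3 h from 25.2 ± 2.99 CPM, and Pla2g15, the lysosomal phospholipase A2, from 57.7 ± 9.08 to 20.6 ± 2.08 CPM with LPS. The fall of Acsl3 with S14 was not called with spike-in scaling (-0.52, edgeR adjusted p = 0.954).

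Of 8 genes on a list of other prostanoid synthases, which also holds the glutathione transferase Mgst1, 6 passed the filter. With S14 at 3 h, 0 of the 6 were called by edgeR's quasi-likelihood test or by DESeq2, and 1 had an unadjusted p under 0.05. LPS at 3 h raised 1 and lowered 2, S14 at 18 h raised 2, and LPS at 18 h raised 4. Mgst1 is counted among the genes raised at 18 h by each agent. With spike-in scaling the test called 0 genes for LPS at 3 h, 2 lower for S14 at 18 h, and 1 higher and 2 lower for LPS at 18 h. With untreated library 4 also left out it called 1 higher in each of these 3 comparisons and 0 lower. Mgst1, a microsomal glutathione transferase of the same protein family as Ptges, rose from 29.5 ± 4.21 CPM to 63.6 ± 13.6 CPM with S14 and 114 ± 19.5 CPM with LPS at 18 h. Prxl2b, a prostamide and prostaglandin F synthase, stood at 32.3 ± 8.29, 55.3 ± 4.13 and 59.6 ± 7.69 CPM in the same groups (0.78 ± 0.15 and 0.89 ± 0.15, edgeR adjusted p = 7.42e-05 and 1.66e-06). With spike-in scaling the S14 difference of Prxl2b was -0.06 and that of Mgst1 0.08, neither called. Without untreated library 4 as well, Mgst1 was called (0.71, edgeR adjusted p = 0.0483) and Prxl2b was not (0.13, edgeR adjusted p = 0.71). The LPS rise of Prxl2b was called in neither spike-in scaled fit (0.39 and 0.57, edgeR adjusted p = 0.305 and 0.0927). Cbr1, a carbonyl reductase of prostaglandins, and Prxl2b were lower with LPS at 3 h (-0.67 ± 0.17 and -0.62 ± 0.17), but not by the spike-in scaled test (edgeR adjusted p = 0.482 and 0.461).

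Of 13 other lipoxygenase and leukotriene genes, 4 passed the filter, and 0 of these were called with S14 at 3 h by edgeR or DESeq2 (0 at an unadjusted p under 0.05). LPS at 3 h and S14 at 18 h each raised 1 and lowered 1, and LPS at 18 h raised 1 and lowered 2. Dpep2, a dipeptidase that converts leukotriene D4 to E4, stood at 263 ± 34.4 CPM in untreated cells at 18 h, 128 ± 13.4 CPM with S14 (-1.04 ± 0.14, edgeR adjusted p = 4.22e-06) and 29.2 ± 9.33 CPM with LPS (-3.16 ± 0.17, edgeR adjusted p = 2.37e-15). It fell with LPS at 3 h as well (-1.25 ± 0.15, edgeR adjusted p = 7.89e-08). Mgst3 fell from 17.6 ± 4.51 to 5.68 ± 1.49 CPM with LPS at 18 h.

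Among 13 genes of eicosanoid breakdown and export, 10 passed the filter. S14 raised 1 and lowered 1 at 3 h and raised 1 and lowered 3 at 18 h; LPS raised 2 and lowered 2 at 3 h and raised 3 and lowered 3 at 18 h. With spike-in scaling S14 at 18 h raised 0 and lowered 8, LPS at 3 h raised 0 and lowered 0, and LPS at 18 h raised 1 and lowered 5. With untreated library 4 also left out these were 0 and 3, 2 and 0, and 2 and 3. With all libraries that scaling called 7639 genes in all for S14 at 18 h, where the median gene moved by -0.97. Hpgd, the hydroxyprostaglandin dehydrogenase that inactivates prostaglandins, was the gene of this list that moved most. It stood at 24.4 ± 5.36 CPM in untreated cells at 3 h, 8.59 ± 1.93 CPM with S14 (-1.49 ± 0.24, edgeR adjusted p = 6.3e-06) and 12.6 ± 4.70 CPM with LPS (-0.95 ± 0.23, edgeR adjusted p = 0.000614). At 18 h it stood at 67.5 ± 15.1 CPM untreated and 13.5 ± 3.75 CPM with S14 (-2.32 ± 0.21, edgeR adjusted p = 8.43e-11). LPS left 2 reads against 1633 in untreated cells, a ratio of 580 (95% interval 160 to 4790, exact binomial). S14 at 18 h thus lay between untreated and LPS cells for Hpgd, as it did for Ptgs2, Ptges, Ptgs1 and Hpgds, with no overlap between the 3 groups. The fall of Hpgd with LPS at 3 h was not called with spike-in scaling (-0.57, edgeR adjusted p = 0.321). Abcc1, an exporter of leukotriene C4, rose with S14 at 3 h (88.7 ± 10.6 to 133 ± 16.3 CPM), and Abcc4, an exporter of prostaglandins, with LPS (18.7 ± 1.39 to 28.3 ± 0.92 CPM), neither of them called with spike-in scaling, where both differences were larger. Abcc4 was called there when untreated 18 h library 4 was left out (0.94, edgeR adjusted p = 0.0032). After TMM scaling Abcc1 was also called higher with LPS at 3 h (0.43 ± 0.13, edgeR adjusted p = 0.00372). Its difference between S14 and LPS at 3 h was 0.15 ± 0.12 and not called (edgeR adjusted p = 0.335). Ptgr1, which reduces prostaglandin and leukotriene B4 metabolites, rose with S14 at 18 h (46.7 ± 14.1 to 90.5 ± 13.7 CPM), though not by the spike-in scaled test, and Ephx1, an epoxide hydrolase, fell with LPS (23.8 ± 3.98 to 3.37 ± 0.75 CPM). After TMM scaling Ptgr1 was also called higher with LPS at 18 h, at 117 ± 14.4 CPM, and Ephx1 lower with S14, at 12.6 ± 3.73 CPM.

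Of 14 eicosanoid receptor genes, 6 passed the filter. S14 raised 3 at 3 h and 1 at 18 h, and LPS raised 3 and lowered 1 at 3 h and raised 3 and lowered 2 at 18 h (1 lower without untreated library 4). With spike-in scaling S14 at 18 h lowered 4, or 0 with that library also left out. With all libraries that scaling called 7639 genes in all for S14 at 18 h. Ptgir, the prostacyclin receptor, was at 15.8 ± 1.65 CPM in untreated cells at 3 h, 31.4 ± 4.46 CPM with S14 (1.00 ± 0.20, edgeR adjusted p = 0.000145) and 9.99 ± 3.67 CPM with LPS (-0.67 ± 0.22, edgeR adjusted p = 0.00982), so that the 2 agents moved it in opposite directions. At 18 h it was at 13.4 ± 2.46, 13.5 ± 3.04 and 33.8 ± 6.01 CPM. With spike-in scaling none of its called differences from untreated cells was called: 1.11 for S14 and -0.32 for LPS at 3 h, and 0.57 for LPS at 18 h. With untreated 18 h library 4 also left out, S14 at 3 h (1.12, edgeR adjusted p = 0.00198) and LPS at 18 h (1.30, edgeR adjusted p = 0.000196) were called again, and LPS at 3 h was not. Ptger2, a prostaglandin E2 receptor, rose from 5.43 ± 2.24 to 27.0 ± 3.70 CPM with LPS at 18 h (2.32 ± 0.25, edgeR adjusted p = 7.79e-11), and Ptger4, another, from 67.0 ± 7.43 to 109 ± 5.93 CPM with S14 (0.70 ± 0.10, edgeR adjusted p = 3.89e-07), a rise that turned to -0.36 with spike-in scaling (edgeR adjusted p = 0.325) and was 0.30 without untreated library 4 as well (edgeR adjusted p = 0.359). Cysltr1, a cysteinyl leukotriene receptor, rose at 3 h by 0.48 ± 0.15 with S14 and by 0.48 ± 0.16 with LPS, where the LPS and untreated libraries overlapped. With spike-in scaling neither rise was called (edgeR adjusted p = 0.893 and 0.0773), and with untreated 18 h library 4 also left out only that of LPS was (edgeR adjusted p = 0.00442 against 0.243 for S14).

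**Figure D4:**
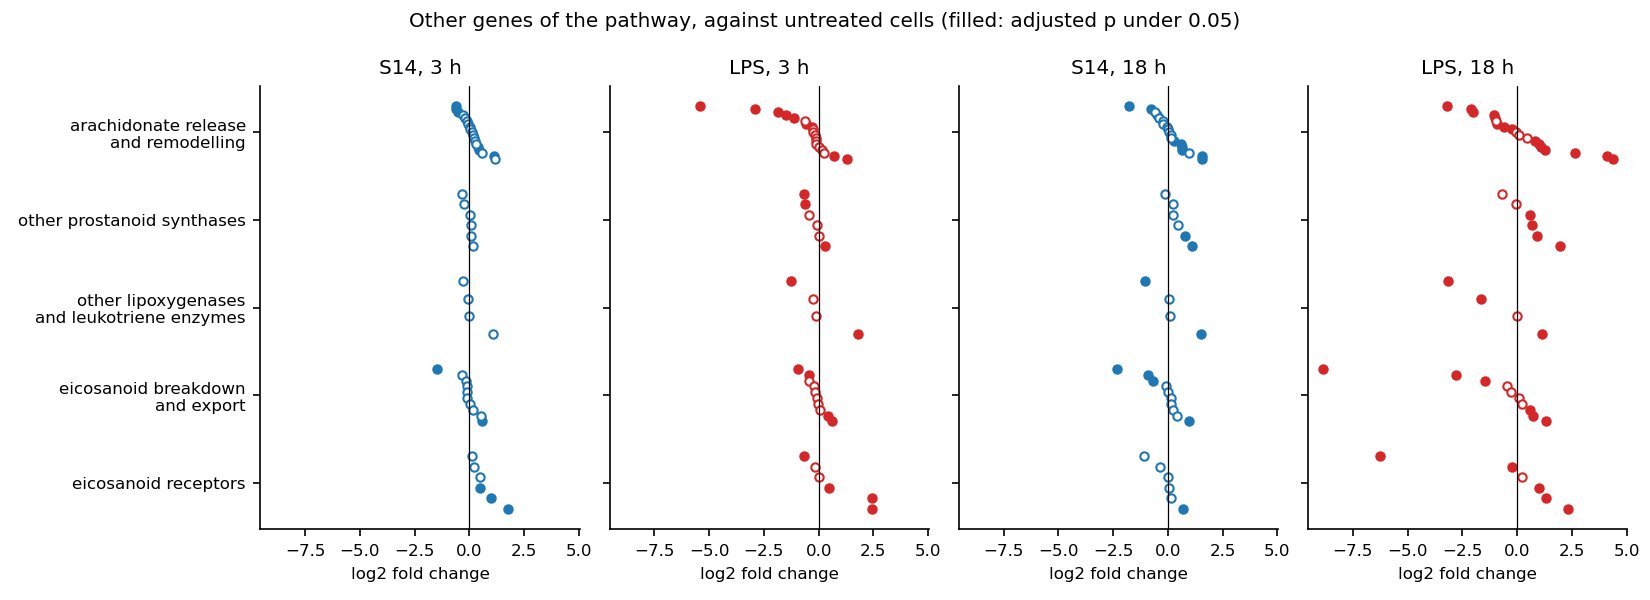
Log2 fold change against untreated cells of every tested gene of the 5 other pathway lists, with filled symbols for called genes, in 1 panel per agent and time and a shared axis. Values spread more in LPS at 18 h, where Hpgd is the lowest point at -8.89 and Acsl1 stands at 4.12, than with S14, where Hpgd at 18 h is the lowest at -2.32.

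The genes most like each member were found by Pearson's r of log2 CPM over the 24 libraries, among 8114 genes with at least 10 CPM on average. The libraries share their treatment within groups, so they are not 24 independent points. For Ptgs2 they were Gpd2 (r = 0.99), Nrp2 (0.987) and Helz2 (0.985), for Ptges Sod2 (0.981), Riok3 (0.966) and Pdpn (0.953), and for Pla2g4a Stx11 (0.952), Rapgef2 (0.948) and Cxcl10 (0.948). For Ptgs1 they were Trem2 (0.946), Hpgd (0.942) and Cadm1 (0.939), and for Hpgds Wwp1 (0.971), Man1c1 (0.958) and Sgpp1 (0.954). Genes like Alox5 included Slc25a4 (0.957) and Cd9 (0.932), and Ltc4s was most like Snhg8 (0.952), Cks1b (0.933) and Pmf1 (0.932). For Alox5ap the nearest were Tnfsf12 (0.909), Hfe (0.89) and Nrp1 (0.89), for Tbxas1 Abcg1 (0.892), Plxnb2 (0.891) and Gpr146 (0.891), and for Lta4h Ubqln2 (0.803), Foxn3 (0.774) and Otulin (0.771).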

How the data were processed

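The authors deposited 2 tables. The first holds whole read counts per gene with no normalization, as deposited by the authors. The second holds a signal that the authors deposited as normalized values: counts divided by 1 size factor per library, from which whole reads were recovered for 100.0% of values (within 8.6e-10); it also holds 114 spike-in RNAs. The submitters' processing notes name cutadapt 1.18, STAR 2.6.1a, featureCounts 1.6.4, DESeq2 and the GRCm38 build. No source used here gives the strand setting or the annotation release of the counting. Per the labels' protocols, libraries were made from 150 ng of RNA with an oligo(dT) 3′ kit and 15 PCR cycles, so counts are not independent molecules and intervals cover counting error only.

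Here 7 ribosomal RNA entries (0.132% to 0.468% of reads) were set aside, and genes were kept with filterByExpr by group (minimum count 10, minimum total 15). edgeR 4.0.16 (R 4.3.3) fitted a robust quasi-likelihood model with TMM scaling and 1 mean per group over all 24 libraries (18 residual degrees of freedom), without a replicate block. The 9 comparisons were each treatment against untreated cells and S14 against LPS at both times, untreated cells between the times, and the time dependence of each response. The script was tested on simulated data. Shares were taken within libraries, with no test. Gene positions are from GENCODE M21 and promoters from RefSeq. The alternatives were DESeq2 1.42.0 and its size factors, no filter, a replicate block, only the groups compared, the second table's reads, spike-in scaling with and without untreated 18 h library 4, and leaving out each library.

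The members, lists and tests were chosen with earlier results of these data known. In all comparisons the 10 members are named. From each other list, up to 2 called genes with the largest change at 10 CPM or more are named per comparison with untreated cells. For likeness, the 3 genes with the highest r are named, except 1 that is not reported here. The symbol Dpep2 has 2 rows in the table, and the row used is the one with reads; the other has 0.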

Additional observations from a re-analysis of the deposited data

Results flagged for a closer look

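The level of a library was compared with the other 3 of its group for every member in every group, 60 groups in all, and 2 were marked by Dixon's criterion at the 95% level, which chance alone marks in about 1 of 20 groups. Alox5 in LPS at 18 h had a gap of 0.868 of the group's range, which is the step between 0 reads in library 1 and 1 read in each of the others. Lta4h with S14 at 18 h had a gap of 0.838, with library 4 at 41.3 CPM and the other 3 at 28.4 to 30.5 CPM.

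The response of 7 members differed between 3 h and 18 h by the interaction test on the log2 scale. For LPS the change was 4.61 for Ptges, -4.15 for Ptgs1, -1.36 for Hpgds, -5.25 for Alox5 and -1.24 for Ltc4s. For S14 it was -1.68 for Ptgs2 and 0.29 for Alox5ap (edgeR adjusted p = 0.0345, and not called in 6 of 16 fits without 1 library, with values from 0.24 to 0.33 and adjusted p up to 0.097). The untreated reference itself differed between the times for Ptges, Ptgs1, Hpgds, Ltc4s and Ptgs2. Their part in these differences was not tested apart from the interaction.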

How the results depend on the processing

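The calls of Ptgs2, Ptges and Pla2g4a against untreated cells, of Ptgs1 and Hpgds at 18 h, and of Alox5 and Ltc4s with LPS at 18 h kept their direction and side of the threshold under all alternatives. Low counts limit Ptges in untreated cells, Ptgs2 in untreated cells at 18 h (17 reads in all), and Alox5 and Ptgs1 with LPS at 18 h. Outside scaling to spike-ins, the values that changed sign were small and not called: with DESeq2 size factors Lta4h was 0.014 for S14 at 3 h, Hpgds -0.025 and Tbxas1 -0.019 for S14 against LPS at 3 h, and Pla2g4a -0.019 and -0.051 for the time dependence of S14 and LPS. DESeq2's own test gave 0.014, -0.024, -0.019, -0.018 and -0.048. With only the groups compared Lta4h was 0.0020 and Hpgds -0.0030, and with the second table's reads Hpgds was -0.0018. Same-numbered libraries correlated between -0.026 and 0.143, so the numbers were not taken as pairs. A replicate block turned Alox5 with LPS at 3 h to 0.0011, ended the call of Alox5 with S14 at 18 h (-1.01, edgeR adjusted p = 0.0501) and called Ptges for S14 against LPS at 3 h (-0.45, edgeR adjusted p = 0.036). Fitting only the groups compared did the same to both (edgeR adjusted p = 0.174 and 0.0414). With size factors Alox5ap with LPS at 3 h missed the call (edgeR adjusted p = 0.0502), leaving 1 member lower, and 0 members were higher in the time dependence of S14, as without a filter.

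Scaling to spike-ins, with the values that also leave out untreated 18 h library 4 in brackets, changed more, and the cause was not tested. Signs changed for Lta4h with S14 at 3 h, 0.11 (0.11), and with LPS at 3 h for Tbxas1, 0.15 (0.15), Alox5, 0.31 (0.30), Alox5ap, 0.14 (0.14), Lta4h, 0.072 (0.069), and Ltc4s, 0.083 (0.081). For S14 against LPS they changed for Hpgds, -0.29 (-0.28), and Tbxas1, -0.21 (-0.20), at 3 h, and for Tbxas1, -0.18 (-0.18), and Lta4h, -0.061 (-0.057), at 18 h. With S14 at 18 h Pla2g4a was -0.81 (-0.0036), Tbxas1 -1.02 (-0.37) and Alox5ap -0.99 (-0.39), and Alox5 in untreated cells between the times was 0.98 with all libraries. In the time dependence of S14 Pla2g4a was -1.23 (-0.44), Ptges -0.43 (-0.61), Hpgds -0.93 (-0.38), Tbxas1 -0.96 (-0.31) and Alox5ap -0.85 (-0.26), and in that of LPS Pla2g4a was -1.09 (-0.30) and Tbxas1 -0.99 (-0.33).

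Counts of members moved as well. Lower members were 0 (0) for S14 and 0 (0) for LPS at 3 h, 7 for S14 and 7 (4) for LPS at 18 h, and 5 and 7 in the time dependence of S14 and LPS. Higher members were 3 (3) for S14 against LPS at 18 h and 0 (0) in the time dependence of S14. Untreated cells between the times had 5 higher and 2 lower. Of all genes, 374 (798) were called for S14 and 3296 for LPS at 3 h, 2232 (3499) for S14 against LPS at 3 h, 7639 for S14 at 18 h, 1915 for S14 against LPS at 18 h and 4115 in the time dependence of S14. With library 4 left out, 4018 were called for LPS at 18 h and 2422 for untreated cells between the times. Of the release and remodelling list, S14 at 18 h raised 0 (2) and lowered 13 (3).

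Leaving out 1 library at a time moved Lta4h from -0.070 to 0.050 and Ltc4s from -0.12 to 0.096 for S14 at 3 h, Alox5 from -0.28 to 0.15 for LPS at 3 h and from -0.74 to 0.053 in untreated cells between the times, and Tbxas1 from -0.019 to 0.12 for S14 at 18 h. For S14 against LPS at 3 h Ptgs1 ran from -0.40 to 0.016, Hpgds from -0.065 to 0.12, Tbxas1 from -0.027 to 0.067 and Alox5ap from -0.065 to 0.0061. In the time dependence of S14 Pla2g4a ran from -0.19 to 0.21, Ptges from -0.024 to 0.98 and Alox5 from -0.73 to 0.12, and in that of LPS Pla2g4a from -0.19 to 0.21. Members lower with S14 at 3 h numbered 1 to 2, those higher for S14 against LPS at 3 h 0 to 1, and those higher and lower in the time dependence of S14 0 to 1 each. The Ptgs2 share moved by less than 1 SD in every group.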

Other observations

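Some pathway genes were too low for the naming rule and were picked out after their values were seen. Pla2g2e, a secreted phospholipase A2, stood at 1.12 ± 0.29 CPM in untreated cells and 1.33 ± 1.29 CPM with S14 at 3 h (SD, n = 4). It had 0 reads in the 4 LPS libraries, against 22 reads with S14. Set against a floor of 3 reads over the group, S14 was 5.96-fold higher, a ratio without the error of the 22 reads. At 18 h Pla2g2e was read in all 3 treatments, at 1.75, 1.17 and 2.38 CPM. Pla2g5, another secreted phospholipase A2, had 53 reads with LPS at 18 h against 3 in untreated cells, a ratio of 24.9 after scaling (95% interval 8.07 to 125, exact binomial). Ptger3, a prostaglandin E2 receptor, had 50 reads in untreated cells at 18 h and 0 with LPS. On the same floor that is 11.8-fold lower, again without the error of the 50 reads. Ltb4r1, the leukotriene B4 receptor, did not pass the filter, with a mean of 2.64 CPM with LPS at 18 h and at most 0.434 CPM in the other 5 groups.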
